A study of Sorghum bicolor with 15 samples.

Results

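Among 34129 sorghum genes counted in roots, 5 genes of 2 hormone pathways are described here, namely 3 homologs of rice SMALL AUXIN UP RNA (SAUR) genes and 2 homologs of Arabidopsis HIGHLY ABA-INDUCED PP2C 3 (HAI3). They were chosen by name, since the study that produced the libraries names them among genes it describes as having a genotype-by-age interaction. The ID of each has 1 row in the count table. The SAUR homologs are Sobic.007G191400 (homolog of OsSAUR50), Sobic.002G259100 (homolog of OsSAUR72) and Sobic.004G156300 (homolog of OsSAUR72-like), on chromosomes 7, 2 and 4 by their IDs. The HAI3 homologs are Sobic.003G354000 and Sobic.002G172000, on chromosomes 3 and 2. All 5 passed the filter on low counts that left 18473 genes to be tested. Because the study picked these genes from the same libraries, none of the tests below is independent evidence of their direction.

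The libraries came from whole root systems of the sorghum varieties Shanqui Red (SQR), which is susceptible to the parasitic weed Striga, and SRN39, a resistant variety with a defective LOW GERMINATION STIMULANT 1 (LGS1) gene. Both varieties grew under 1 greenhouse regime, first in sterilized soil plugs and then in sand cones with a dilute low-phosphate nutrient solution, and roots were collected at 28 and 35 d. All sample titles carry the label CTR, which the sources used here do not spell out. The study describes no Striga in the growth of these plants. Labelled libraries were available for 4 biological replicates per variety and age, except for SQR at 35 d with 3. The study itself reports 4 replicates in every group. How many plants made up a replicate is not given in the sources used here. The varieties differ across the whole genome, so a difference between them cannot be assigned to LGS1, and each variety is represented by 1 line.

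SAUR genes encode small, short-lived proteins, and many of them are switched on within minutes of auxin reaching a cell. They are best known for promoting cell expansion, by keeping plasma membrane proton pumps active. Auxin itself is read by F-box receptors that remove Aux/IAA repressors, and GH3 enzymes dampen the response by joining auxin to amino acids. Abscisic acid is the hormone of drought and seed dormancy. Its receptors of the PYR/PYL family capture and inhibit clade A protein phosphatases 2C (PP2Cs), which otherwise keep SnRK2 kinases inactive. In Arabidopsis HAI3 is one of these phosphatases, and its transcript is itself raised by abscisic acid, so that it acts as a brake on the signal that induces it. Which of these roles the sorghum homologs fill is not measured here.

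Each library was made from the 3′ ends of polyadenylated RNA, and library totals were between 6369710 and 17304929 reads counted on genes. LGS1 (Sobic.005G213600), used as a check of the labels, had 233 to 1012 counts in the SQR libraries and 5 to 24 in those of SRN39. Replicates of SQR at 35 d were more variable than the others. The variance of log2 CPM, averaged over genes, was 0.391 in that group and 0.16 to 0.222 in the rest. TMM factors, which correct library size for composition, were 0.856 to 0.995 in SRN39 at 28 d and 1.02 to 1.19 at 35 d. Levels are given as CPM, counts scaled to library size after TMM correction, with the SD over replicates. Differences are log2 fold changes with their standard error (SE) from 1 quasi-likelihood model of the 4 groups in edgeR, and a gene was called when its Benjamini-Hochberg adjusted p over all 18473 genes was under 0.05. In whole roots, fewer cells of a type and less RNA per cell cannot be told apart.

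All 5 genes rose with age in SRN39, where 15.7% of all genes tested were called higher. None of the 5 was called for age in SQR by edgeR, where few genes were called at all (1.07% higher and 1.53% lower). DESeq2 called 1 of them, Sobic.002G259100, among 1385 genes called for this contrast, against 480 by edgeR. At 28 d the SRN39 roots had lower levels of the OsSAUR50 homolog and of 1 HAI3 homolog than SQR roots, and at 35 d they had higher levels of the OsSAUR72 pair and of the other HAI3 homolog. The rise in SRN39 ranged from 1.55-fold for Sobic.002G259100 to 3.77-fold for the HAI3 homolog Sobic.002G172000. The interaction, which tests whether the age difference differed between the varieties, was called for 4 of the 5 genes, against 3.68% of all genes in that direction. Of these 4 calls, that of Sobic.004G156300 held in 3 of 15 fits with 1 library left out. The interaction of the OsSAUR50 homolog missed the threshold (0.87, adjusted p = 0.053) and was called by DESeq2.

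**Figure D1:**
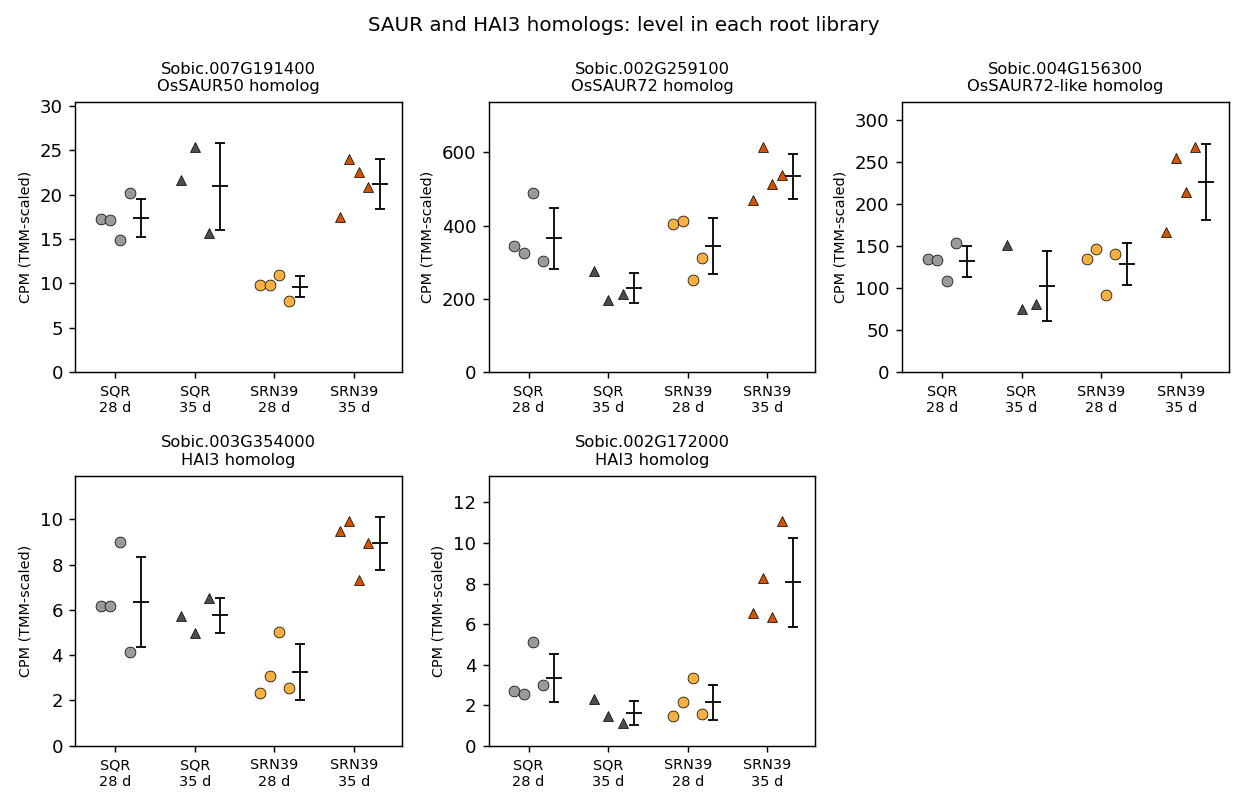
Level of each SAUR and HAI3 homolog in every root library, in TMM-scaled CPM on linear axes that start at 0. Each point is 1 library (circles 28 d, triangles 35 d, gray SQR, orange SRN39), and the bars beside them give mean ± SD (n = 4, or 3 for SQR at 35 d). The SRN39 libraries at 35 d lie above those at 28 d in all 5 panels.

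The OsSAUR50 homolog Sobic.007G191400 differed from the other members in being set apart by SRN39 at 28 d. Its levels at 28 d were 17.3, 17.1, 14.9 and 20.2 CPM in SQR and 9.84, 9.8, 10.9 and 8.01 CPM in SRN39. At 35 d they were 21.7, 25.4 and 15.7 CPM in SQR and 17.5, 24, 22.6 and 20.9 CPM in SRN39. The 4 SRN39 libraries at 28 d were thus below all 11 others, whereas the remaining 3 groups overlapped. Group means rose from 9.65 ± 1.21 CPM (SD, n = 4) in SRN39 at 28 d to 17.4 ± 2.16 in SQR at 28 d (n = 4), 20.9 ± 4.86 in SQR at 35 d (n = 3) and 21.2 ± 2.8 in SRN39 at 35 d (n = 4), and the last 2 groups and SQR at 28 d did not separate beyond their spread.

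At 28 d Sobic.007G191400 was 1.8-fold lower in SRN39 (log2 fold change -0.85, SE 0.18, edgeR adjusted p = 0.0027). By 35 d the difference was 0.02 (95% interval -0.38 to 0.42, adjusted p = 0.94), and it changed sign to -0.02 when libraries were scaled by their totals alone. The gene rose 2.2-fold with age in SRN39 (log2 fold change 1.14, SE 0.18, adjusted p = 0.00036), while the age difference in SQR was 0.27 (SE 0.19, adjusted p = 0.4). The interaction subtracts the age difference of SQR from the one of SRN39. It was 0.87 (95% interval 0.32 to 1.42) and was not called (adjusted p = 0.053). Of the 15 fits with 1 library removed, 2 called it, namely without replicate 2 of SQR at 35 d (1.03, adjusted p = 0.023) and without replicate 1 of SRN39 at 35 d (0.95, adjusted p = 0.046), and also by DESeq2 (0.86, adjusted p = 0.026).

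The OsSAUR72 homolog Sobic.002G259100 did not separate the varieties at 28 d. Its levels there were 343, 326, 489 and 302 CPM in SQR and 403, 413, 252 and 312 CPM in SRN39. At 35 d they were 277, 198 and 214 CPM in SQR and 469, 615, 514 and 539 CPM in SRN39. All SRN39 libraries at 35 d lay above all SQR libraries of that age, and all 3 SQR libraries at 35 d lay below those of SQR at 28 d. Group means were 230 ± 42 CPM (SD, n = 3) in SQR at 35 d, 345 ± 77.3 in SRN39 at 28 d, 365 ± 84.1 in SQR at 28 d and 534 ± 60.8 in SRN39 at 35 d (n = 4 each). Each group overlapped with the next in this order.

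The difference of Sobic.002G259100 between varieties was -0.08 at 28 d (95% interval -0.5 to 0.34, adjusted p = 0.84) and 1.22 at 35 d (SE 0.22, edgeR adjusted p = 0.00043), a 2.33-fold higher level in SRN39. The age difference was -0.67 in SQR (SE 0.22, adjusted p = 0.091, not called) and 0.63 in SRN39 (SE 0.2, adjusted p = 0.024, called as higher). With these opposite signs the interaction was 1.3 (95% interval 0.68 to 1.92, adjusted p = 0.015), and it was called in each of the 15 fits that left out 1 library. The rise in SRN39 was less firm, and its size depended on the scaling. It was 0.93 with library totals in edgeR (adjusted p = 0.0016) and 0.92 by limma-voom (adjusted p = 0.0019). Its call was lost without replicate 3 (0.51, adjusted p = 0.067) or replicate 4 (0.59, adjusted p = 0.069) of SRN39 at 28 d, and without replicate 2 (0.56, adjusted p = 0.072) or replicate 4 (0.63, adjusted p = 0.05) of SRN39 at 35 d.

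The OsSAUR72-like homolog Sobic.004G156300 was called in the same contrasts and directions as Sobic.002G259100, while its SQR libraries overlapped between the ages. Its levels at 28 d were 134, 133, 108 and 153 CPM in SQR and 135, 146, 91.2 and 141 CPM in SRN39. At 35 d they were 151, 75.3 and 81.4 CPM in SQR and 167, 255, 214 and 268 CPM in SRN39. The 4 SRN39 libraries at 35 d were above all 11 others. Replicate 1 of SQR at 35 d, at 151 CPM, stood far above the other 2 libraries of its group and within the range of SQR at 28 d. Group means were 103 ± 41.9 CPM (SD, n = 3) in SQR at 35 d, 128 ± 25 in SRN39 at 28 d, 132 ± 18.4 in SQR at 28 d and 226 ± 45.4 in SRN39 at 35 d (n = 4 each), and the first 3 of these overlapped.

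At 35 d Sobic.004G156300 was 2.2-fold higher in SRN39 (log2 fold change 1.14, SE 0.25, edgeR adjusted p = 0.0021), after a difference of -0.04 at 28 d (95% interval -0.52 to 0.44, adjusted p = 0.93). It rose 1.76-fold with age in SRN39 (log2 fold change 0.82, SE 0.23, adjusted p = 0.012), and its age difference in SQR was -0.36 (SE 0.25, adjusted p = 0.39). The interaction was 1.18 (95% interval 0.47 to 1.89, adjusted p = 0.042), a call near the threshold. With 1 library left out it was 1 to 1.57. It was called without replicate 3 of SQR at 28 d (1.27, adjusted p = 0.042), replicate 1 of SQR at 35 d (1.57, adjusted p = 0.0054) or replicate 1 of SRN39 at 35 d (1.3, adjusted p = 0.033), but in none of the other 12 fits that left out 1 library, whose adjusted p reached 0.093.

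The HAI3 homolog Sobic.003G354000 had fitted differences between varieties of opposite sign at the 2 ages, and only the first was called. Its levels at 28 d were 6.17, 6.16, 8.98 and 4.14 CPM in SQR and 2.33, 3.09, 5.02 and 2.55 CPM in SRN39. At 35 d they were 5.74, 4.99 and 6.53 CPM in SQR and 9.5, 9.94, 7.31 and 8.97 CPM in SRN39. The SRN39 libraries at 35 d were above all SQR libraries of that age, and at 28 d the varieties overlapped through replicate 4 of SQR and replicate 3 of SRN39. Group means were 3.25 ± 1.23 CPM (SD, n = 4) in SRN39 at 28 d, 5.75 ± 0.769 in SQR at 35 d (n = 3), 6.36 ± 1.99 in SQR at 28 d and 8.93 ± 1.15 in SRN39 at 35 d (n = 4 each). Each group overlapped with the next in this order.

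At 28 d Sobic.003G354000 was 1.98-fold lower in SRN39 (log2 fold change -0.99, SE 0.27, edgeR adjusted p = 0.014). This call was lost without replicate 3 of SQR at 28 d (-0.75, adjusted p = 0.076) and without replicate 1 (-0.85, adjusted p = 0.058) or replicate 4 (-0.88, adjusted p = 0.057) of SRN39 at 28 d. At 35 d the difference was 0.63 (95% interval 0.05 to 1.21) and was not called (adjusted p = 0.082). The gene rose 2.74-fold with age in SRN39 (log2 fold change 1.45, SE 0.26, adjusted p = 0.00089), against an age difference of -0.17 in SQR (95% interval -0.75 to 0.42, adjusted p = 0.75) whose sign turned to 0.05 with scaling by library totals. The interaction was 1.62 (95% interval 0.81 to 2.43, adjusted p = 0.018). It was called in all 15 fits with 1 library left out, but not after all libraries were thinned to the size of the smallest (1.34, adjusted p = 0.07).

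The HAI3 homolog Sobic.002G172000 had the largest contrast of the 5 genes. Its levels at 28 d were 2.71, 2.56, 5.13 and 2.98 CPM in SQR and 1.48, 2.17, 3.35 and 1.55 CPM in SRN39. At 35 d they were 2.29, 1.48 and 1.13 CPM in SQR and 6.54, 8.25, 6.35 and 11.1 CPM in SRN39. The 4 SRN39 libraries at 35 d were above all 11 others, and the SQR libraries at 35 d were all below those of SQR at 28 d. Group means were 1.64 ± 0.598 CPM (SD, n = 3) in SQR at 35 d, 2.14 ± 0.866 in SRN39 at 28 d, 3.35 ± 1.2 in SQR at 28 d and 8.06 ± 2.19 in SRN39 at 35 d (n = 4 each). SRN39 at 28 d overlapped with both SQR groups, which did not overlap with each other.

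At 35 d Sobic.002G172000 was 4.9-fold higher in SRN39 (log2 fold change 2.29, SE 0.37, edgeR adjusted p = 0.00014), and at 28 d the difference was -0.67 (SE 0.33, adjusted p = 0.2). It rose 3.77-fold with age in SRN39 (log2 fold change 1.91, SE 0.33, adjusted p = 0.00061). In SQR the age difference was -1.05 (95% interval -1.82 to -0.27), which had an unadjusted p of 0.011 but was not called (adjusted p = 0.11). The interaction of 2.96 (95% interval 1.92 to 4, adjusted p = 0.0034) corresponds to a 7.78-fold difference between the age ratios of the 2 varieties, and it was called in each of the 15 fits with 1 library left out.

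The HAI3 homologs were counted from few reads. The lowest value of Sobic.002G172000, in replicate 3 of SQR at 35 d, came from 14 counts (1.13 CPM, exact binomial 95% interval 0.617 to 1.89), and its highest, in replicate 4 of SRN39 at 35 d, from 163 counts (11.1 CPM, 9.44 to 12.9). For Sobic.003G354000 the lowest value came from 22 counts (2.33 CPM, 1.46 to 3.52) and the highest from 124 counts (9.94 CPM, 8.27 to 11.8). These intervals cover counting error only and not the spread between replicates. They treat reads as independent, which reads copied by PCR are not. The SAUR homologs were counted from 88 reads or more in each library, so that the lowest value of Sobic.007G191400 (8.01 CPM) had an interval of 6.43 to 9.87.

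**Figure D2:**
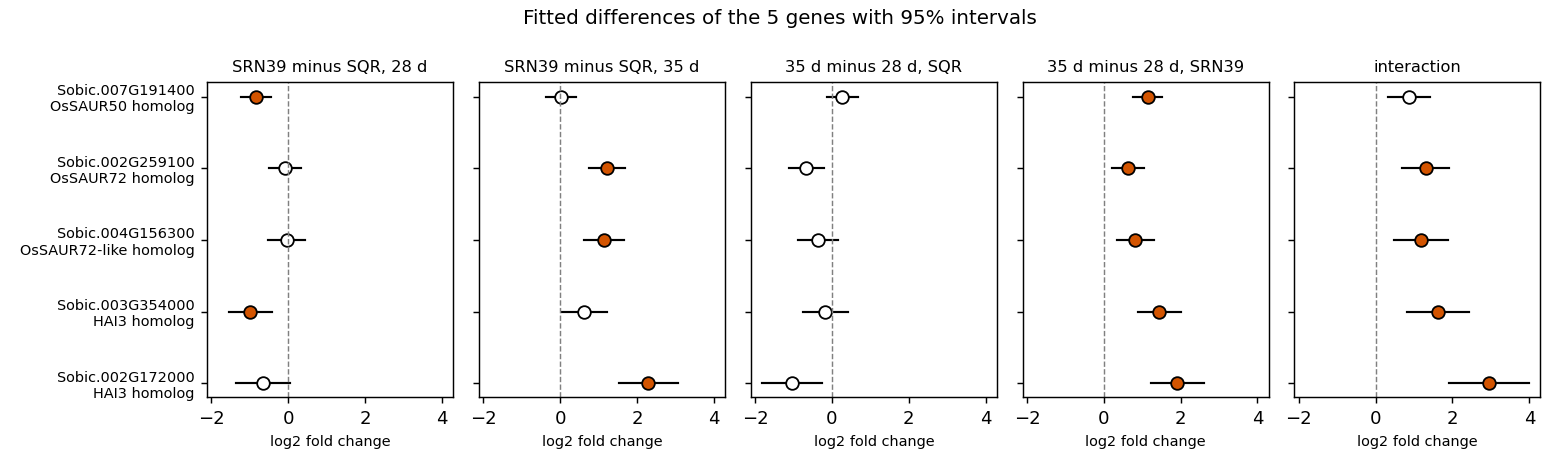
Fitted differences of the 5 genes in the 5 contrasts, as log2 fold changes with 95% intervals from the edgeR model. Filled points were called at an adjusted p under 0.05 over all 18473 genes, and the dashed line marks no difference. All 5 genes are called in the age contrast of SRN39 (0.63 to 1.91), and none in that of SQR (-1.05 to 0.27), where 15.7% of all genes were called higher in the former and 1.07% higher and 1.53% lower in the latter.

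Set against all genes tested, the comparison between varieties at 28 d gave 2 lower calls and 0 higher calls among the 5 members, where 8.74% of the 18473 genes were called lower and 8.65% higher. Fitted differences of the 5 were all below 0, with a median of -0.67 beside -0.04 over all genes, although those of the OsSAUR72 pair were near 0 and each reached 0.11 in a fit with 1 library left out. Sobic.007G191400 was the only member whose varieties did not overlap at 28 d, and 11.1% of all genes did not overlap in that direction. At 35 d 3 of the 5 were called higher and 0 lower, with 16.3% of all genes called higher and 19.4% lower. Libraries of the 2 varieties did not overlap for 4 of the 5, all higher in SRN39, as for 17.7% of all genes. The median was 1.14 beside -0.06 over all genes.

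With age in SRN39 all 5 members were called higher, where 15.7% of all genes were called higher and 15.2% lower, and the libraries of the 2 ages did not overlap for any of them, as for 18.6% of all genes in that direction. Their median log2 fold change was 1.14 beside 0.04 over all genes. With age in SQR 0 of the 5 were called in either direction by edgeR, where the background was small as well, with 1.07% of all genes called higher and 1.53% lower. The OsSAUR72 homolog Sobic.002G259100 and the HAI3 homolog Sobic.002G172000 did not overlap between the ages in SQR. Both were lower at 35 d, and 7.22% of all genes did not overlap in that direction. DESeq2 called the first of them (-0.68, adjusted p = 0.036), and it called 1385 genes for this contrast, against 480 by edgeR. No other alternative fit called this fall. It was -0.43 by limma-voom (adjusted p = 0.23) and -0.44 with library totals in edgeR (adjusted p = 0.17). The interaction was called as higher for 4 of the 5 and as lower for 0, against 3.68% and 3.66% of all genes, with a median of 1.3 beside -0.02. The contrasts share libraries, and the study named these genes among those it describes as having a genotype-by-age interaction in them. The interaction counts thus largely restate that choice. All of these counts describe the members and say nothing of hormone genes in general.

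By role, the 3 SAUR homologs had a median interaction of 1.18 and the 2 HAI3 homologs one of 2.29. At 28 d the medians were -0.08 for the SAUR and -0.83 for the HAI3 homologs, and at 35 d they were 1.14 and 1.46. Among the SAUR homologs, that of OsSAUR50 was called at 28 d and not at 35 d, and the OsSAUR72 pair the reverse. Among the HAI3 homologs, Sobic.003G354000 was called between varieties at 28 d and Sobic.002G172000 at 35 d. Differences between members were not tested.

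**Figure D3:**
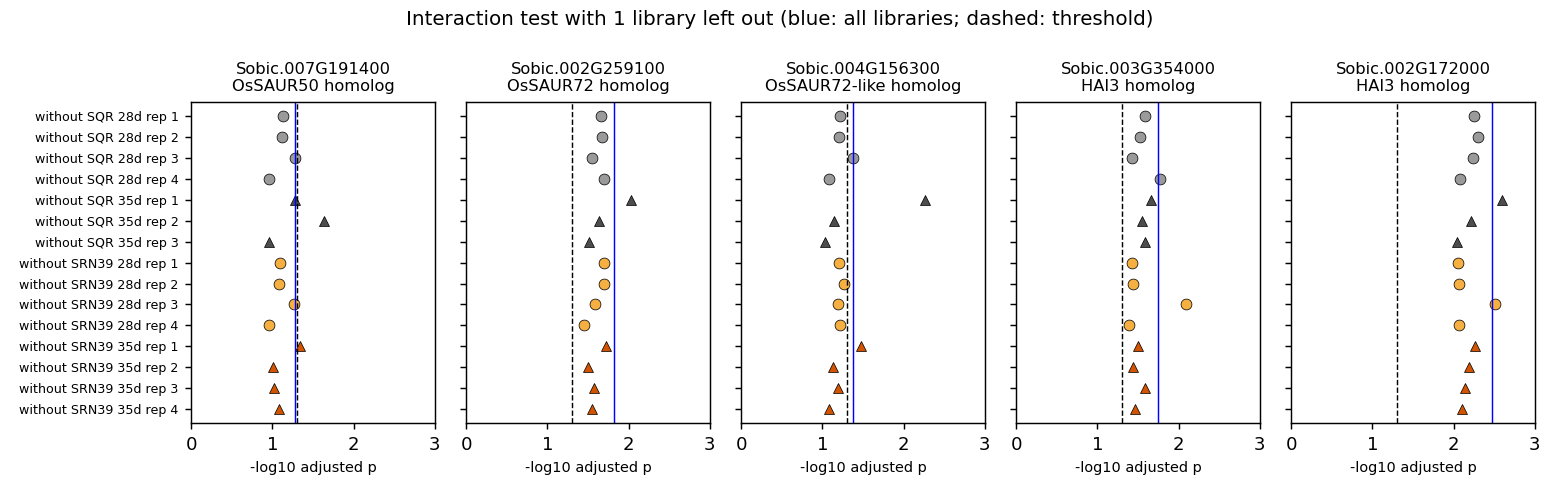
Adjusted p of the genotype-by-age interaction after leaving out each library in turn, as -log10 on a linear axis, 1 panel per gene. The dashed line is the threshold of 0.05, the blue line the value with all 15 libraries, and points to the right of the dashed line were called. Sobic.002G259100, Sobic.003G354000 and Sobic.002G172000 stay called in 15 of 15 fits, Sobic.004G156300 in 3 and Sobic.007G191400 in 2.

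The variation of log2 CPM of each gene was divided into parts. For Sobic.007G191400 age took 51.4%, genotype 14.7%, the interaction 19% and replicates 14.8%. In the other 4 genes the interaction was the largest part, with 45.9% for Sobic.002G259100, 35.4% for Sobic.004G156300, 38.6% for Sobic.003G354000 and 58.2% for Sobic.002G172000. Replicates took 17.2% to 32.4% in these 4. Age averaged over the varieties took only 0.247% for Sobic.002G259100, in which the age differences of SQR and SRN39 had opposite signs. From the lowest to the highest of the 15 libraries the level spanned 9.81-fold in Sobic.002G172000 and 3.1-fold to 4.27-fold in the other genes.

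Across the 15 libraries the OsSAUR72 pair varied most alike of all pairs of members, with a correlation of log2 CPM of 0.83, and 0.46 after group means were removed. Of the tested genes, 0.238% were as like Sobic.002G259100 as its partner, and 0.487% as like it as the HAI3 homolog Sobic.002G172000. The HAI3 homologs correlated at 0.73 over the libraries and at 0.63 within groups, and 2.64% of the tested genes were as like Sobic.003G354000. Likeness over the libraries did not follow family, since the HAI3 homolog Sobic.002G172000 correlated at 0.79 with Sobic.002G259100 (0.24 within groups) and at 0.74 with Sobic.004G156300 (0.06 within groups), and Sobic.003G354000 at 0.7 with Sobic.007G191400 (-0.23 within groups). Of the tested genes, 2.33% were as like Sobic.004G156300 as Sobic.002G172000 was, and 4.36% as like Sobic.007G191400 as Sobic.003G354000 was. Sobic.007G191400 had little in common with Sobic.002G259100 (0.1) and with Sobic.004G156300 (0.27). These correlations describe 15 libraries that share 4 group means, library depth and scaling, and carry no test. The study named the members from groups of genes clustered by expression in these libraries, so their likeness is not independent evidence.

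Within groups, the HAI3 homologs stood highest in the same libraries at 28 d. Both were highest in replicate 3 of SQR (8.98 and 5.13 CPM) and in replicate 3 of SRN39 (5.02 and 3.35 CPM) among the 4 libraries of their group. Whether these replicates share more than their number is not given in the sources used here. Replicate 3 of SQR at 28 d is also the largest library, with 17304929 counts. Without it, the interaction remained called for both HAI3 homologs. Sobic.004G156300 was lowest in the same 2 libraries, at 108 and 91.2 CPM. The part of any 1 library in these patterns was not tested beyond the fits that left it out.

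For each member the tested gene with the most similar profile was looked up. Sobic.004G183600 was the most like Sobic.007G191400 (r = 0.94 over 15 libraries, 0.722 within groups) and also had its lowest mean in SRN39 at 28 d, with fitted differences of -0.65 between varieties at 28 d and 1.08 with age in SRN39. Sobic.001G237000 was nearest to Sobic.002G259100 (r = 0.926, 0.759 within groups) and Sobic.003G189000 to Sobic.004G156300 (r = 0.918, 0.724 within groups). Sobic.006G280900 was nearest to Sobic.003G354000 (r = 0.909, 0.74 within groups). Sobic.009G054500 was nearest to Sobic.002G172000 (r = 0.923, 0.861 within groups), with an age difference of 1.68 in SRN39 and -0.24 in SQR. None of the 5 nearest genes is another member, and their functions are not annotated in the sources used here. Between 82 and 211 genes had an r of at least 0.8 with a given member, and between 2 and 8 an r of at least 0.9.

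Genes next to the members on the chromosomes were compared with them. Of the 10 nearest tested genes, 1 on each side of each member in the order of IDs, 3 were called higher and 2 lower with age in SRN39, where 15.7% and 15.2% of all genes were, and 1 higher and 1 lower for the interaction, against 3.68% and 3.66%. Sobic.002G171901, just before the HAI3 homolog Sobic.002G172000, had 0 counts in each of the 7 SQR libraries, which allows up to 3 in a library, and 5 to 23 counts in the 8 SRN39 libraries. It was called higher in SRN39 at both ages (edgeR adjusted p = 0.00012 and 0.00045) and not with age. Sobic.007G191500, next to the OsSAUR50 homolog, was lower in SRN39 at both ages (-3.27, edgeR adjusted p = 0.0026, and -3.96, adjusted p = 0.00013). Its counts were low, at 0 to 6 in the SRN39 libraries and 5 to 60 in those of SQR, so the size of these differences is uncertain. Sobic.002G259000, next to the OsSAUR72 homolog, moved against it, with an age difference of -0.98 in SRN39 (adjusted p = 0.00071) and an interaction of -1.16 (adjusted p = 0.011). Sobic.002G172300, the nearest tested gene after the HAI3 homolog Sobic.002G172000, moved with it, with a difference of 1.86 between varieties at 35 d (adjusted p = 0.0025), of 1.75 with age in SRN39 (adjusted p = 0.0032) and an interaction of 2.36 (adjusted p = 0.022). Its counts were also low, at 3 to 32 in SQR and 8 to 70 in SRN39. SAUR genes often stand in clusters of near-identical copies, and reads that match several copies are not counted on any. Sequence similarity of the members to other genes was not checked here, so their counts carry that uncertainty.

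Other genes of the auxin pathway were read from a list of 4, taken by annotation from a stretch of chromosome 1 in a table of genes that the study had chosen for a genotype effect in these libraries. The calls between varieties at 28 d were 2 higher and 2 lower, against 8.65% and 8.74% of all genes. Those at 35 d were 0 and 2 (all genes 16.3% and 19.4%). With age they were 0 and 1 in SQR (1.07% and 1.53%) and 1 and 3 in SRN39 (15.7% and 15.2%). For the interaction they were 1 and 2 (3.68% and 3.66%). Unlike the SAUR homologs, most of the 4 fell with age in SRN39, and their median was -1.37, beside 0.04 over all genes. The Aux/IAA gene Sobic.001G056100, whose best Arabidopsis match is the repressor IAA3/SHY2, was the exception. Its mean level was 27.5 ± 6.46 CPM in SQR at 28 d, 12.3 ± 3.63 in SQR at 35 d, 7.83 ± 1.15 in SRN39 at 28 d and 14.6 ± 2.95 in SRN39 at 35 d (SD, n = 4, 3, 4 and 4). It fell with age in SQR (-1.15, edgeR adjusted p = 0.022) and rose in SRN39 (0.9, adjusted p = 0.0067), with an interaction of 2.06 (adjusted p = 0.0032).

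The GH3 gene Sobic.001G331200, of the family that conjugates auxin, was highest where the OsSAUR50 homolog was lowest. It had 112 ± 6.79 CPM in SRN39 at 28 d against 45.1 ± 15.3 in SQR (SD, n = 4 each), and 24.5 ± 4.21 in SRN39 at 35 d (n = 4) against 55.2 ± 12.5 in SQR (n = 3). Its difference between varieties was 1.3 at 28 d (edgeR adjusted p = 0.00027) and -1.17 at 35 d (adjusted p = 0.00077), with an interaction of -2.48 (adjusted p = 0.0011). The gene matching the receptor AUXIN SIGNALING F-BOX 2, Sobic.001G477400, was higher in SRN39 at 28 d (1.61, adjusted p = 2.4e-05) and fell with age there (-1.09, adjusted p = 0.0012). The auxin-repressed protein gene Sobic.001G377000 was lower in SRN39 at both ages (-0.85, adjusted p = 0.049, and -2.01, adjusted p = 9.6e-05) and fell with age in SRN39 (-1.66, adjusted p = 0.00072).

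**Figure D4:**
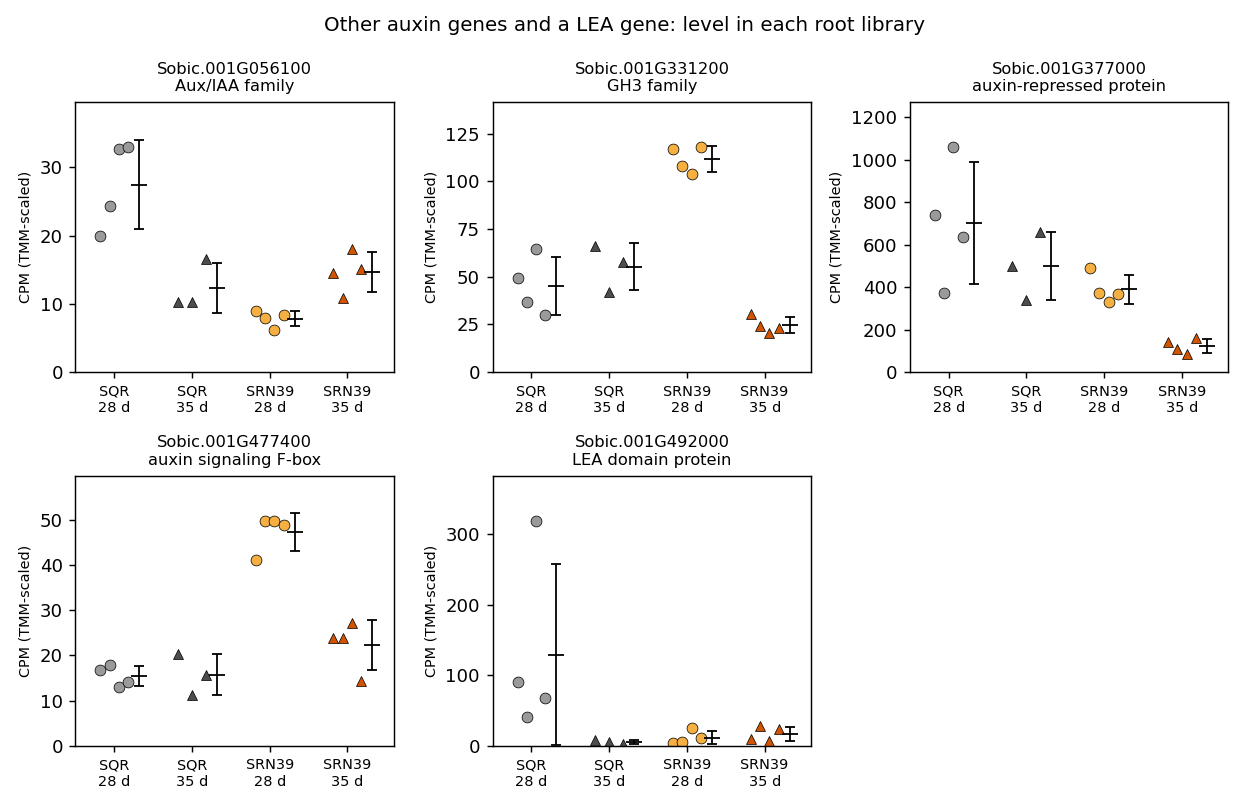
Level in every root library of the 4 auxin genes and of the late embryogenesis abundant (LEA) gene read from the same table, in TMM-scaled CPM on linear axes. Symbols are as for the SAUR and HAI3 homologs (circles 28 d, triangles 35 d, gray SQR, orange SRN39) and bars give mean ± SD (n = 4, or 3 for SQR at 35 d). The GH3 gene is highest in SRN39 at 28 d (112 CPM), and the LEA gene in SQR at 28 d, where its libraries range from 40.1 to 319 CPM.

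On the side of abscisic acid, the same table held 8 genes, of which 7 neighbouring genes encode Bet v I family proteins with a PYL receptor as best Arabidopsis match and 1 encodes a LEA domain protein. The Bet v I fold is shared by abscisic acid receptors and by defence proteins of the PR-10 class, so these 7 may not be receptors. In SRN39 at 28 d 2 of the 8 were called higher and 6 lower, against 8.65% and 8.74% of all genes. At 35 d the calls were 2 and 3 (all genes 16.3% and 19.4%). With age they were 0 and 1 in SQR (1.07% and 1.53%) and 5 and 0 in SRN39 (15.7% and 15.2%). For the interaction they were 3 and 0 (3.68% and 3.66%). The study had chosen the genes of this table for a genotype effect in these libraries, so these counts describe the 8 only. Their median age difference in SRN39 was 1.61, beside 1.68 for the HAI3 homologs and 0.04 over all genes. Sobic.001G400900 and Sobic.001G401000 were the 2 that were higher in SRN39 at both ages, with differences at 28 d of 4.2 (edgeR adjusted p = 6.5e-08) and 5.11 (adjusted p = 2.1e-09). Whether reads of such neighbouring copies were assigned correctly in both varieties was not checked, so these values are uncertain.

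The LEA gene Sobic.001G492000, of a class of proteins that accumulate in drying tissue and seeds, had 89.7, 40.1, 319 and 67.1 CPM in SQR at 28 d and 7.8, 5.38 and 2.74 CPM in SQR at 35 d. In SRN39 it had 4.44, 5.57, 25.7 and 10.7 CPM at 28 d and 9.09, 27.4, 7.17 and 23.5 CPM at 35 d. It fell with age in SQR (-4.6, edgeR adjusted p = 0.011) and was lower in SRN39 than in SQR at 28 d (-3.47, adjusted p = 0.0012), with an interaction of 5.13 (adjusted p = 0.0072). At 28 d replicate 3 was its highest library within SQR and, separately, within SRN39, as it was for both HAI3 homologs. With age in SRN39, where both HAI3 homologs rose, its difference was 0.53 (adjusted p = 0.55).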

How the data were processed

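Whole roots of SQR and SRN39 were profiled with QuantSeq 3′ mRNA-Seq. The authors pooled technical replicates, trimmed the reads with fastx-trimmer and reaper, mapped them to the BTx623 genome with STAR and deposited raw read counts per gene as STAR gives them. Versions of STAR and of the annotation, and the strand setting, are not given in the sources used, so antisense reads may be included. The 15 labelled libraries were used, and 1 further column that matches no sample description was not. Of 34129 genes, 6041 had no count in these libraries.

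The tests used edgeR 4.0.16 in R 4.3.3. The filter required over 1 CPM in 3 or more libraries and left 18473 genes. TMM scaling was applied, and 1 quasi-likelihood model of the 4 groups gave 5 contrasts, two-sided, with Benjamini-Hochberg adjustment over all genes at 0.05. This replaces the limma-voom fit of the study, which was run as an alternative. The fit was tested on simulated data. Each SE was derived from the fold change and the F statistic. P-values judge each difference against the spread between biological replicates, which the model shares over the 4 groups and moderates across genes. The variation of log2 CPM (prior count 2) was divided by sequential sums of squares, and correlations are Pearson's r of the same values.

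Named genes are all 5 members, the tested gene most correlated with each, the nearest tested gene on each side, and the listed auxin and abscisic acid genes called in a contrast. The members and lists were chosen with earlier results of these data known. Of the gene IDs, 0 matched the RefSeq table, so sequences and root markers were not examined. Names are those the study gives. Alternatives were RLE size factors, library totals without TMM, DESeq2 1.42.0, limma 3.58.1 (voom with quantile normalization), no filter, edgeR's filter by group, a fit per pair of groups, a replicate block, counts thinned to the smallest library (seed 20210819), a threshold of 0.01, and removal of each library in turn.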

Additional observations from a re-analysis of the deposited data

Results flagged for a closer look

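The age difference differed between the varieties, by the interaction test in edgeR, for 4 of the 5 genes, where 3.68% of all genes tested were called in that direction. The log2 interaction was 1.3 for the OsSAUR72 homolog Sobic.002G259100 (adjusted p = 0.015), 1.18 for the OsSAUR72-like homolog Sobic.004G156300 (adjusted p = 0.042), 1.62 for the HAI3 homolog Sobic.003G354000 (adjusted p = 0.018) and 2.96 for the HAI3 homolog Sobic.002G172000 (adjusted p = 0.0034). In each of the 4 the fitted age difference was above 0 in SRN39 and below 0 in SQR, though none was called in SQR and that of Sobic.003G354000 turned to 0.05 with library totals and to 0.02 after thinning. The call of Sobic.004G156300 held in 3 of 15 fits with 1 library left out, and the other 3 calls in 15 of 15. The study named these genes among those it describes as having a genotype-by-age interaction in the same libraries. The interaction calls therefore largely restate how the genes were chosen.

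For Sobic.002G172000, replicate 3 of SQR at 28 d, at 5.13 CPM, stood apart from the other 3 libraries of its group (2.56 to 2.98 CPM) by more than Dixon's 95% limit. Chance alone passes this limit in about 1 in 20 groups.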

How the results depend on the processing

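Of 620 values of the 5 genes in 25 gene-contrast pairs under alternatives, 575 kept direction and side of the threshold, 27 lost the call, 7 gained it and 11 changed sign. No sign change concerned a called value. Causes were not tested, beyond what the construction of a setting shows.

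At an adjusted p under 0.01 the calls of Sobic.003G354000 at 28 d (-0.99), of Sobic.002G259100 (0.63) and Sobic.004G156300 (0.82) for age in SRN39, and of the interactions 1.3, 1.18 and 1.62 were lost, and genes called numbered 2015, 4092, 33, 2860 and 291 in place of 3213, 6583, 480, 5704 and 1355 (varieties at 28 and 35 d, age in SQR and SRN39, interaction). With library totals, Sobic.007G191400 at 35 d was -0.02 and Sobic.003G354000 for age in SQR 0.05, the latter 0.02 after thinning, where its interaction was 1.34 (adjusted p = 0.07). Library totals also gave a larger age difference in SRN39 for each member, from 0.93 for Sobic.002G259100 to 2.19 for Sobic.002G172000. DESeq2 called Sobic.002G259100 for age in SQR (-0.68) and the interaction of Sobic.007G191400 (0.86), and 1385 genes for age in SQR. Sobic.003G354000 at 35 d was called by limma-voom (0.67, adjusted p = 0.041) and in the fit of only the groups compared (0.67, adjusted p = 0.049), which called 11 genes for age in SQR.

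Correlations of same-numbered libraries after removal of group means were -0.22 to 0.17 over 21 pairs. Values of differently numbered pairs are not given here, so whether a replicate number stands for shared handling was not tested. With number as a replicate block, 103 genes were called for age in SQR and 712 for the interaction, and the interaction of Sobic.004G156300 was 1.15 (adjusted p = 0.067). The block changed no other call of the 5 genes.

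Leaving out 1 library gave -0.17 to 0.11 for Sobic.002G259100, -0.11 to 0.11 for Sobic.004G156300, -1.26 to -0.75 for Sobic.003G354000 and -0.96 to -0.34 for Sobic.002G172000 at 28 d, -0.15 to 0.18 for Sobic.007G191400 and 0.54 to 0.73 for Sobic.003G354000 at 35 d, -0.31 to 0.06 for Sobic.003G354000 and -0.75 to -0.18 for Sobic.004G156300 for age in SQR, 0.51 to 0.73 for Sobic.002G259100 for age in SRN39, and interactions of 0.7 to 1.03 for Sobic.007G191400 and 1 to 1.57 for Sobic.004G156300. Genes called for age in SQR numbered 70 (without replicate 4 at 28 d) to 2076 (without replicate 3 at 35 d), and for the interaction 839 (without replicate 4 of SQR at 28 d) to 1946 (without replicate 1 of SQR at 35 d).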
